A study of Homo sapiens with 24 samples.

Results

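Aminoacyl-tRNA synthetases are the enzymes that join each amino acid to its tRNA. The genes described here were taken as a given list of 36 nuclear synthetase genes, 20 for the cytosolic and 16 for the mitochondrial enzymes, out of 25268 genes in the table. All 36 were present, and all 36 had a mean of at least 1 FPKM, the lowest mean at which a gene was tested. They were followed in A375 cells, a human malignant melanoma line, in 8 groups of 3 libraries. At 24 h and again at 48 h the cells received 25 µM A771726, 25 µM A771726 with nucleotides, nucleotides alone, or DMSO, the solvent control. A771726 is the active metabolite of leflunomide and inhibits DHODH, an enzyme of pyrimidine synthesis, so the nucleotide groups ask which changes are still seen when nucleotides are supplied. Which nucleotides were given, and at what dose, is not given in the sources used here. The RNA was total RNA depleted of ribosomal RNA. The labels do not say that the 3 libraries of a group came from separate cultures, so the tests weigh differences against a spread between libraries that may be technical only.

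Cytosolic synthetases charge the tRNAs used by ribosomes in the cytosol, and a separate set, encoded in the nucleus and imported, charges the tRNAs of mitochondria. EPRS, IARS, LARS, MARS, QARS, RARS, KARS and DARS are held in the multi-synthetase complex on the scaffold proteins AIMP1, AIMP2 and EEF1E1, while the other cytosolic enzymes work outside it. GARS and KARS each encode both the cytosolic and the mitochondrial enzyme, EPRS charges glutamate and proline tRNAs in a single protein, and FARSA and FARSB are the subunits of the phenylalanine enzyme. Many of the cytosolic genes are known targets of ATF4, the transcription factor that is translated when amino acids run short and that binds C/EBP-ATF response elements.

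The values are FPKM, fragments mapped to a gene scaled to transcript length and to all mapped fragments, and the read depth behind them is unknown. Of the 24 libraries, 22 had FPKM sums between 459325 and 773002, and the median rank correlation of each with the others lay between 0.894 and 0.968. A771726 48 h replicate 2 stood apart, with a sum of 2283905 of which MIR3687 held 60.8%, 16198 genes at 0 and a median rank correlation of 0.325. It was left out of the fit, which therefore holds 23 libraries. A771726 48 h replicate 1 had a sum of 231144 and a median rank correlation of 0.724, and the 48 h results that it enters are also given without it. FPKM sums were lower with A771726 at 24 h, 459325, 582736 and 545372 against 740088, 729588 and 769510 with DMSO. The melanocyte lineage genes SOX10 and S100B were present, at 31.4 ± 5.98 and 26 ± 1.25 FPKM with DMSO at 24 h (SD, n = 3), while the pigment genes MLANA and PMEL were at 0.15 ± 0.00682 and 0.268 ± 0.0681 FPKM. The 4 fibroblast markers summed to 2.73 to 3.98 FPKM with A771726 and 1.24 to 1.48 FPKM with DMSO at 24 h, and the 3 endothelial markers to 0.187 to 0.272 and 0.0409 to 0.0444 FPKM. Of these lists 1 of 4 and 0 of 3 genes reached 1 FPKM. The 8 melanocyte markers summed to 113 to 144 FPKM with A771726 and 91.8 to 109 with DMSO, and 3 keratinocyte markers to 6.06 to 7.39 and 5.26 to 6.61, with KRT1 at 0. Among the melanocyte markers at 24 h, MITF was at 11.4 ± 1.99 FPKM with A771726 and 5.85 ± 0.668 with DMSO. PMEL was at 1.24 ± 0.348 FPKM with A771726, and AXL at 30.9 ± 8.13 with A771726 and 37.9 ± 3.46 with DMSO. TYR and DCT stayed under 1 FPKM in both groups. The part of all these markers in the results was not tested.

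With DMSO at 24 h the cytosolic genes were the more abundant set, with a median level of 58.2 FPKM, against 10.8 FPKM for the mitochondrial genes. FPKM are scaled to transcript length, so levels can be set side by side between genes. KARS was the highest cytosolic gene at 125 ± 6.8 FPKM, followed by RARS at 116 ± 16.1, TARS at 101 ± 10.4, NARS at 92.9 ± 9.65 and IARS at 80.3 ± 5.91 FPKM (SD, n = 3). Each of these overlapped the next over its libraries, and IARS lay clear of FARSA at 65.4 ± 5.22 FPKM. From FARSA down to LARS, at 48.1 ± 5.73 FPKM, no neighbours in the order were apart beyond their libraries. DARS at 28.4 ± 2.86 and CARS at 27.3 ± 1.96 FPKM formed a lower step, and FARSB at 14.9 ± 2.05 and VARS at 12.7 ± 2.28 FPKM the lowest. FARSA and FARSB make equal numbers of subunits of the same enzyme, yet their transcript levels did not overlap. Among the mitochondrial genes IARS2 was highest at 55.6 ± 3.34 FPKM and CARS2 next at 30.8 ± 3.47, each clear of the gene below it, while PARS2 was lowest at 2.3 ± 0.163 FPKM.

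A771726 lowered a set of mainly cytosolic synthetase transcripts within 24 h. Against DMSO, 11 of the 36 genes fell, 8 of 20 cytosolic and 3 of 16 mitochondrial, and none rose at an adjusted p under 0.05 (limma, Benjamini-Hochberg over 11485 genes). Over all genes tested, 4.62% fell and 6.55% rose. The median log2 fold change was -0.46 for the cytosolic genes and -0.18 for the mitochondrial genes, beside 0.02 for all genes, but it was 0.04 and 0.28, beside 0.47 for all genes, when every library was rescaled to the same FPKM sum. Relative to the median of all genes, the cytosolic median was therefore -0.48 as deposited and -0.44 after rescaling, and the mitochondrial median -0.21 and -0.19. Of the 20 cytosolic genes, 19 lay below the median of all genes at either scale. The number that fell was 4 without A771726 24 h replicate 1 (CARS, MARS, SARS and YARS) and 7 without replicate 3. It was 5 and 6 without DMSO 24 h replicates 2 and 1, and 1 (SARS, limma adjusted p = 0.0406) with all 24 libraries in the fit. The number over all genes moved too, from 531 in the main fit to 249 at the lowest when 1 library at a time was left out. The share of all genes in each of these fits is not given, so the drop is not read as a result about the members. At equal FPKM sums 1 member fell and 8 rose, at a scale where the median of all genes was 0.47. The share of all genes called at that scale is not given, so the 8 are not read as a result about the members. In bulk RNA, fewer cells of a kind and less RNA per cell cannot be told apart.

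YARS, the tyrosine enzyme, showed the largest fall. It had 21.8, 22.9 and 23.3 FPKM with A771726, against 50.5, 45.6 and 50.9 FPKM with DMSO. The A771726 libraries lay close together and far below each DMSO library, a log2 fold change of -1.08 ± 0.23 (SE, adjusted p = 0.00551). YARS was also the only member that fell when libraries were rescaled to the same sum, by 0.60 on the log2 scale (limma adjusted p = 0.000831). More members rose than fell at that scale. The share of all genes called there is not given, so this call, too, is not read as a result about the members. SARS, the serine enzyme, had 28.1, 42.1 and 37.7 FPKM with A771726, against 66, 63.2 and 64.4 FPKM with DMSO (log2 fold change -0.85 ± 0.16, adjusted p = 0.00216). The DMSO values were tight, and A771726 replicate 1 was the lowest of the 6. MARS, the methionine enzyme of the complex, had 34, 27.9 and 33.3 FPKM with A771726, against 56.3, 53 and 57.3 FPKM with DMSO (-0.79 ± 0.18, adjusted p = 0.0082), with no overlap.

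NARS, the asparagine enzyme, had 44.8, 64.7 and 52.3 FPKM with A771726, against 92.6, 103 and 83.3 FPKM with DMSO (log2 fold change -0.78 ± 0.19, adjusted p = 0.0101). CARS, the cysteine enzyme, had 14.1, 18.2 and 15.4 FPKM with A771726, against 29.1, 25.2 and 27.6 FPKM with DMSO (-0.75 ± 0.15, adjusted p = 0.00262). HARS, the histidine enzyme, had 29.2, 43.2 and 46.3 FPKM with A771726, against 64.9, 55.8 and 65.6 FPKM with DMSO (-0.66 ± 0.18, adjusted p = 0.0268). In these genes, too, the highest A771726 library stayed below the lowest DMSO library. TARS, the threonine enzyme, and EPRS completed the cytosolic genes that fell, with log2 fold changes of -0.57 ± 0.16 and -0.47 ± 0.15 (adjusted p = 0.026 and 0.0467).

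**Figure D1:**
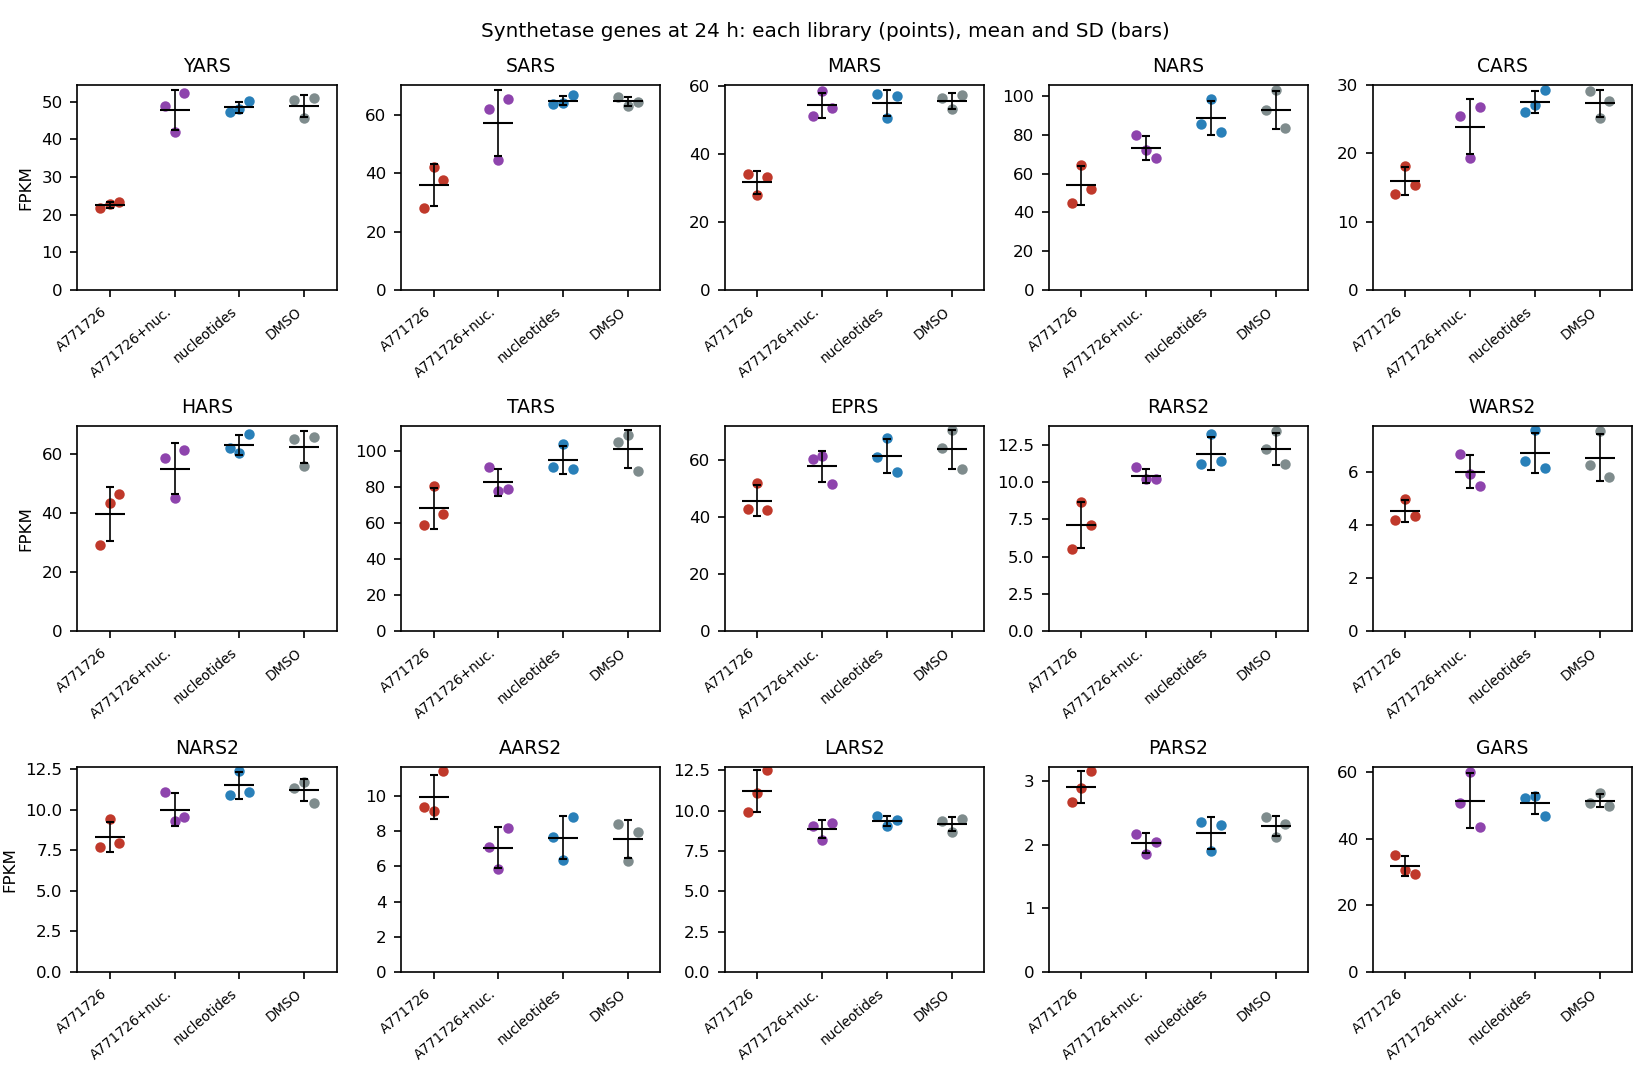
FPKM of 15 synthetase genes at 24 h, by treatment; points are libraries, bars the mean and SD (n = 3), and each vertical axis starts at 0. In the 11 genes that fell with A771726 against DMSO, YARS through NARS2 in the reading order, and in GARS the A771726 points lie below all DMSO points, while in AARS2, LARS2 and PARS2 they lie above them.

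Promoters were searched for the core of the C/EBP-ATF response element, TGATGNAAN, on both strands, from 250 bases before to 50 after each start in RefSeq (GRCh38.p14). Of the 36 genes 30 had a matching entry, and 8 of the 30, or 26.7%, held the word, beside 4.45% of 27305 genes. They were AARS, CARS, GARS, IARS, MARS, NARS and TARS, 7 of 16 cytosolic genes, and YARS2, 1 of 14 mitochondrial genes. All 7 cytosolic genes are among the 10 matched genes described as ATF4 targets, and none of the 6 other cytosolic genes held it. Of the 10 matched genes that fell with A771726 at 24 h 4 held it, and of the 20 that were not called also 4. DARS, LARS, VARS, YARS, AARS2 and VARS2 had no entry. Shown are the genes with the word that fell, CARS, MARS, NARS and TARS, and 2 that did not pass, AARS and IARS, for comparison; capitals mark the word, which reads on the opposite strand in all but NARS.
CARS (chr11:3057399-3057447, minus strand): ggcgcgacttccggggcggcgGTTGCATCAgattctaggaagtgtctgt
MARS (chr12:57488042-57488091, plus strand): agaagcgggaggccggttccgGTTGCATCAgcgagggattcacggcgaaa
NARS (chr18:57621812-57621843, minus strand): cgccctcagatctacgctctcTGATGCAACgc
TARS (chr5:33440956-33440984, plus strand): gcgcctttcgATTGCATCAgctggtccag
AARS (chr16:70289666-70289715, minus strand): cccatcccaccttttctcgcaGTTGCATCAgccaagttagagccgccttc
IARS (chr9:92293683-92293732, minus strand): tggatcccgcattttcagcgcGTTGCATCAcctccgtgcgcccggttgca

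AARS, CARS, IARS, MARS and NARS carried the same 9 letters, TGATGCAAC on one strand or the other, a word found in 0.216% of 35116 promoter windows. All 5 genes had negative log2 fold changes at 24 h, but not all were called. They were -0.31 for AARS and -0.25 for IARS, which were not called, and -0.75, -0.79 and -0.78 for CARS, MARS and NARS, which were. The A771726 libraries of AARS lay wholly below its DMSO libraries all the same, and the difference between the genes was not tested. A match is a string of letters and does not show that ATF4 binds there.

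The uncalled cytosolic genes were not all alike. GARS, singled out after its values were seen, had 35.2, 30.7 and 29.6 FPKM with A771726, against 50.8, 53.7 and 49.9 FPKM with DMSO, without overlap. Its log2 fold change of -0.68 ± 0.33 missed the threshold (adjusted p = 0.222), and in the same fit its 2 libraries with A771726 at 48 h were at 4.82 and 26.6 FPKM. Without A771726 48 h replicate 1 the adjusted p was 0.000564. KARS, the most abundant uncalled gene, had 66.6, 121 and 102 FPKM with A771726, against 132, 123 and 119 FPKM with DMSO (-0.41 ± 0.18, adjusted p = 0.184), and here the groups overlapped. VARS, the valine enzyme, spread widely with A771726, at 30.9, 9.75 and 14.6 FPKM, against 12.5, 10.6 and 15.1 FPKM with DMSO (0.36 ± 0.40, adjusted p = 0.638). The remaining 9 uncalled cytosolic genes had log2 fold changes between -0.56 for RARS and -0.06 for FARSA.

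Of the mitochondrial genes, RARS2, the arginine enzyme, fell the most, with 5.53, 8.67 and 7.11 FPKM with A771726, against 12.2, 13.4 and 11.2 FPKM with DMSO (log2 fold change -0.72 ± 0.17, adjusted p = 0.00982). WARS2, the tryptophan enzyme, had 4.2, 4.97 and 4.35 FPKM with A771726, against 6.25, 7.52 and 5.82 FPKM with DMSO (-0.45 ± 0.13, adjusted p = 0.0384). NARS2, the asparagine enzyme, had 7.67, 9.39 and 7.94 FPKM with A771726, against 11.3, 11.7 and 10.4 FPKM with DMSO (-0.38 ± 0.11, adjusted p = 0.0304). In all 3 the libraries of the groups did not overlap. IARS2, the most abundant uncalled mitochondrial gene, had 44.7, 48.5 and 41.2 FPKM with A771726, against 55.2, 59.1 and 52.4 FPKM with DMSO (-0.31 ± 0.21, adjusted p = 0.402).

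AARS2, LARS2 and PARS2, the mitochondrial alanine, leucine and proline enzymes, lay on the other side, though none passed the test. AARS2 had 9.36, 9.12 and 11.4 FPKM with A771726, against 8.4, 6.33 and 7.97 FPKM with DMSO (log2 fold change 0.36 ± 0.17, adjusted p = 0.206). LARS2 had 9.89, 11.1 and 12.5 FPKM with A771726, against 9.32, 8.66 and 9.47 FPKM with DMSO (0.26 ± 0.10, adjusted p = 0.118), and PARS2 had 2.67, 2.89 and 3.17 FPKM, against 2.44, 2.12 and 2.33 FPKM (0.25 ± 0.12, adjusted p = 0.237). Their A771726 libraries were all above their DMSO libraries. At equal FPKM sums all 3 rose, by 0.84, 0.74 and 0.68 on the log2 scale, beside a median of 0.47 for all genes. Over the 36 genes, 18 had A771726 libraries wholly below the DMSO libraries, 12 cytosolic and 6 mitochondrial. This was 50%, beside 16% of all genes. The 3 wholly above were 8.33% of the 36 and 18.8% of the mitochondrial genes, beside 19.2% of all genes. These 3 were named after their values were seen, and their share does not set the members apart.

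The groupings of the cytosolic genes gave unequal counts. Of the 8 complex members 2 fell, EPRS and MARS, with a median log2 fold change of -0.42, and of the 12 enzymes outside it 6 fell, with a median of -0.61. Among the 12 cytosolic genes described as ATF4 targets 7 fell, with a median of -0.62, and among the other 8 only HARS did, with a median of -0.32. The difference between these groupings was not tested. The structural classes of synthetase gave like counts over both compartments, 6 of 19 in class I and 5 of 17 in class II, with a median of -0.31 in each. EPRS, the glutamate and proline enzyme in a single protein, was counted in class I only. The scaffold genes did not pass, with log2 fold changes of -0.27 ± 0.20 for AIMP1, -0.52 ± 0.26 for AIMP2 and -0.78 ± 0.31 for EEF1E1 (adjusted p = 0.458, 0.235 and 0.125).

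**Figure D2:**
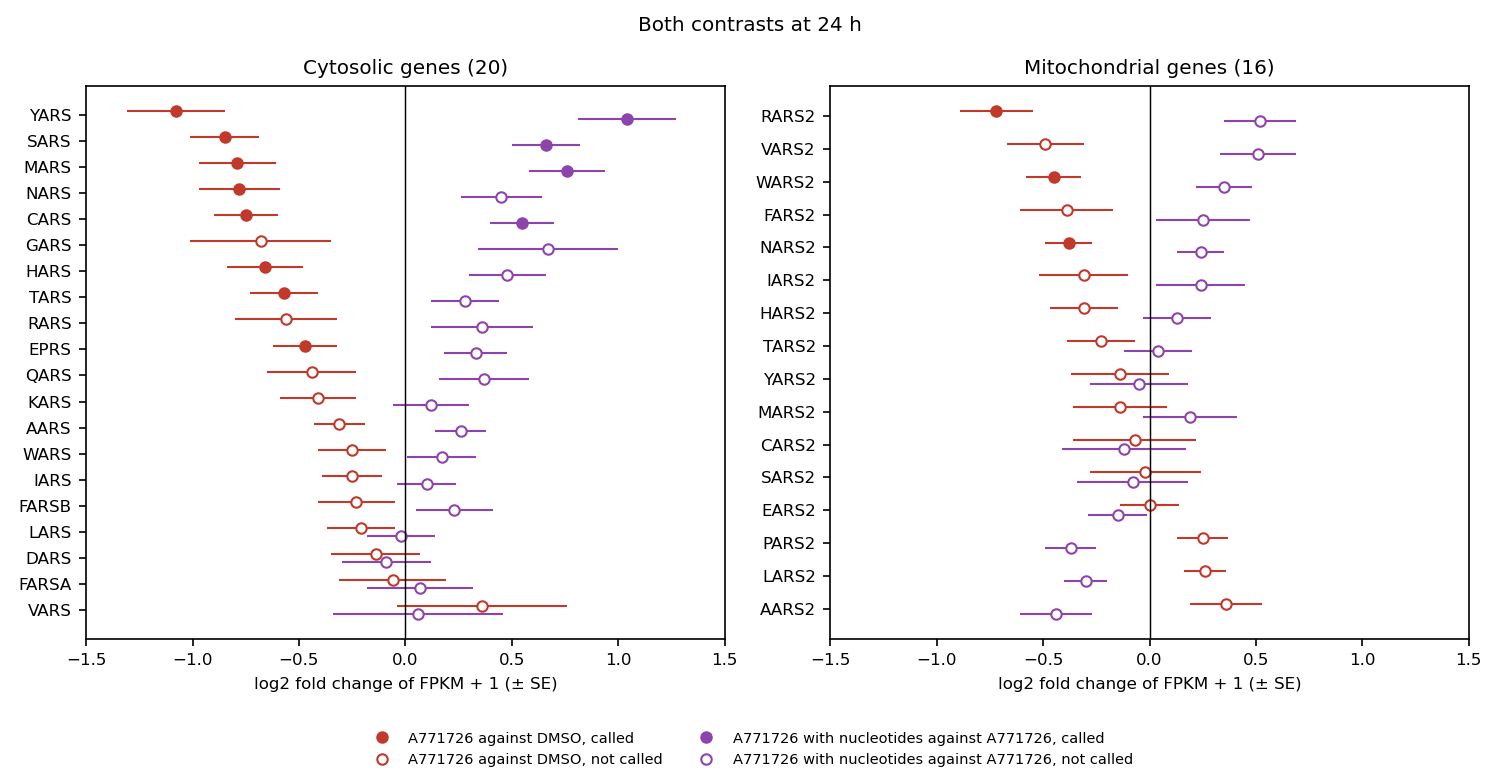
Log2 fold change of FPKM + 1 (± SE) of the 20 cytosolic and 16 mitochondrial genes at 24 h, with A771726 against DMSO in red and A771726 with nucleotides against A771726 in purple; filled points passed at an adjusted p under 0.05. The red points of 32 of the 36 genes lie below 0 as deposited, where the rescaled medians were 0.04 and 0.28, and both contrasts use the same A771726 libraries.

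The sums over each compartment, in which a common scale cancels once they are divided, moved apart at 24 h. The cytosolic genes summed to 793.5, 968.9 and 881.8 FPKM with A771726, against 1246, 1245 and 1176 FPKM with DMSO. The mitochondrial genes summed to 182.7, 222.2 and 220.5 FPKM with A771726, against 242.8, 230.5 and 241.8 FPKM with DMSO. The cytosolic over mitochondrial ratio was 4.34, 4.36 and 4 with A771726, against 5.13, 5.4 and 4.86 with DMSO, and the groups did not overlap. As a share of all FPKM, the cytosolic genes held 0.162% to 0.173% with A771726 and 0.153% to 0.171% with DMSO, which overlap, and the mitochondrial genes held 0.0381% to 0.0404% and 0.0314% to 0.0328%, which do not. These sums were chosen with earlier results known and carry no test.

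**Figure D3:**
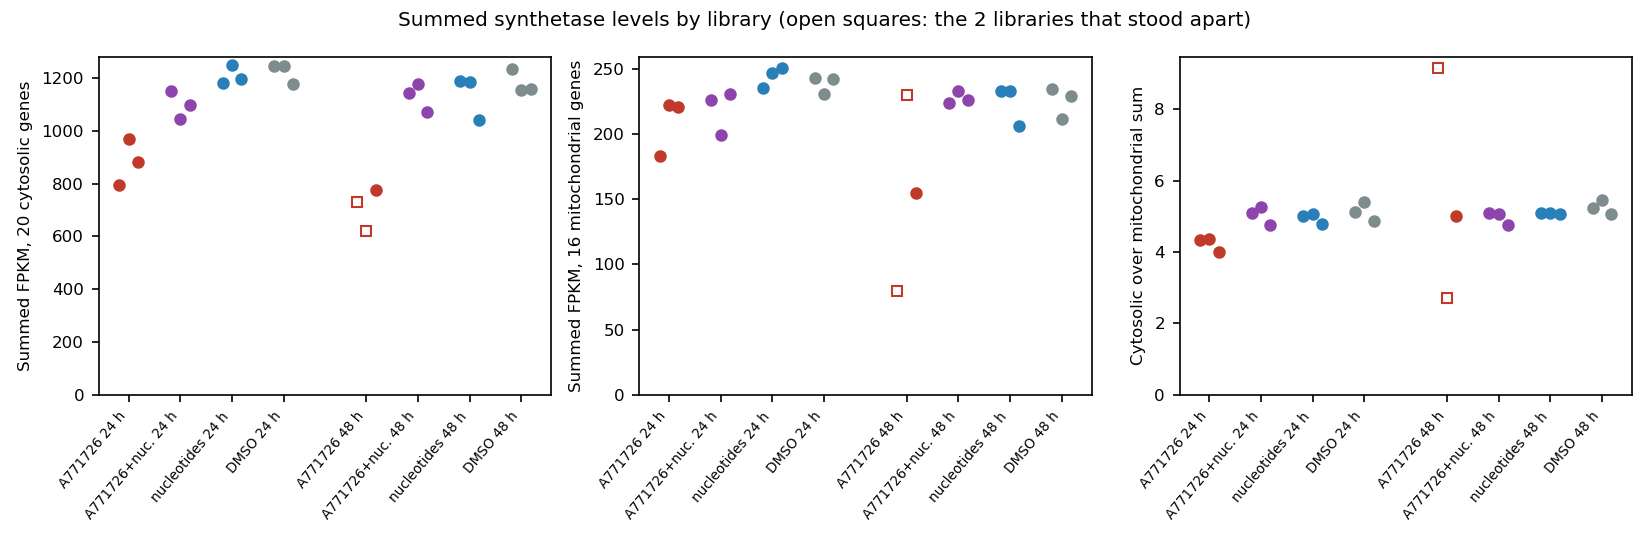
Summed FPKM of the 20 cytosolic genes, of the 16 mitochondrial genes, and their ratio, in each of the 24 libraries by treatment and time; open squares are A771726 48 h replicates 1 and 2. At 24 h the ratio is 4 to 4.36 with A771726 and 4.86 to 5.4 with DMSO, while the other groups at either time lie between 4.75 and 5.45 apart from A771726 at 48 h.

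Nucleotides given with A771726 raised 4 of the genes that A771726 had lowered. Against A771726 alone at 24 h, CARS, MARS, SARS and YARS rose and no member fell, beside 2.34% of all genes that rose and 5.47% that fell. YARS had 48.9, 42 and 52.3 FPKM with A771726 and nucleotides, against 21.8, 22.9 and 23.3 FPKM with A771726 alone (log2 fold change 1.04 ± 0.23, adjusted p = 0.00846). MARS had 51.2, 58.3 and 53.4 FPKM with both, against 34, 27.9 and 33.3 FPKM with A771726 alone (0.76 ± 0.18, adjusted p = 0.0129). In neither gene did the groups overlap. SARS had 61.9, 44.4 and 65.3 FPKM with both, against 28.1, 42.1 and 37.7 FPKM with A771726 alone (0.66 ± 0.16, adjusted p = 0.0164), where replicate 2 with nucleotides stood only just above the highest A771726 library. CARS had 25.5, 19.3 and 26.8 FPKM with both, against 14.1, 18.2 and 15.4 FPKM with A771726 alone (0.55 ± 0.15, adjusted p = 0.0256).

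The median log2 fold change with nucleotides against A771726 alone was 0.31 for the cytosolic genes and 0.09 for the mitochondrial genes, beside -0.03 for all genes, and 0.06 and -0.16, beside -0.26, after rescaling to the same sum. Libraries with nucleotides were wholly above those without in 12 members, 8 cytosolic and 4 mitochondrial, and wholly below in 3, AARS2, LARS2 and PARS2, where 8.5% and 14.5% of all genes were so. With all 24 libraries in the fit no member was called by limma, with 4 at an unadjusted p under 0.05, and 2 rose without A771726 24 h replicate 1 or without replicate 1 or 3 of the group with nucleotides. The number of all genes that rose moved too, from 269 in the main fit to 142 at the lowest when 1 library at a time was left out. At equal FPKM sums 2 members rose, MARS and YARS, and 4 fell, where the median of all genes was -0.26 and the share of all genes called is not given. AARS2, LARS2 and PARS2 had log2 fold changes of -0.44 ± 0.17, -0.30 ± 0.10 and -0.37 ± 0.12 (adjusted p = 0.136, 0.0774 and 0.0824). This comparison and the one with DMSO share the A771726 libraries, so their opposite signs are not independent. Compared with DMSO, cells given A771726 and nucleotides showed no called member, with 0 of 36 at an unadjusted p under 0.05 and log2 fold changes between -0.34 and 0.42, and 0.00871% of all genes called in each direction. In this comparison 5 members, KARS, NARS, WARS, RARS2 and YARS2, had libraries wholly below those of DMSO and 0 wholly above, where 7.97% and 4.06% of all genes were so. Nucleotides alone against DMSO gave no called member at 24 h or 48 h by limma, 0 at an unadjusted p under 0.05 at either time, with 0% of all genes higher and 0.00871% lower at 24 h and 0% either way at 48 h. Its log2 fold changes ran from -0.08 to 0.09 at 24 h and from -0.19 to 0.36 at 48 h.

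Whether the A771726 effect itself differed with nucleotides was tested as a difference of log2 fold changes at 24 h. No member passed by limma, beside 0.618% of all genes higher and 1.71% lower, and 6 members had an unadjusted p under 0.05. The difference was 1.05 ± 0.33 for YARS (adjusted p = 0.14) and 0.77 ± 0.26 for MARS (adjusted p = 0.172). Leaving out A771726 48 h replicate 1 does not change these 24 h differences, only the spread against which they are weighed. That fit has 1 library for A771726 at 48 h, and its calls are not set against the shares above.

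At 48 h most synthetase transcripts were lower with A771726, as were most genes. Replicates 1 and 3 of A771726 entered the fit, and 32 members fell and 1, LARS, rose against DMSO, beside 57% of all genes that fell and 5.74% that rose. Without A771726 48 h replicate 1, 17 members fell and 0 rose, beside 22.1% of all genes that fell and 6.56% that rose in that fit, where replicate 3 alone stands for the group and is assumed to vary like the others. The members that fell were 88.9% with replicate 1 and 47.2% without it. Rescaled to the same sum, 9 fell and 5 rose, and the share of all genes called at that scale is not given. The median log2 fold change was -0.99 for the cytosolic and -0.71 for the mitochondrial genes, beside -0.68 for all genes, and -0.05 and 0.08, beside 0.04, after that rescaling. Fitted on the groups compared alone, no member passed by limma, with 21 at an unadjusted p under 0.05.

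In 30 members both A771726 libraries lay below all DMSO libraries, and in 1, LARS, above them, where 56.7% and 7.29% of all genes did so.

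Replicate 3, the 48 h library with A771726 that resembled the rest, still showed lower values in most members. Its log2 difference from the DMSO mean was below 0 in 19 of 20 cytosolic and 15 of 16 mitochondrial genes, with medians of -0.69 and -0.39, beside -0.26 for all genes. YARS had 5.93 and 19.3 FPKM in replicates 1 and 3 with A771726, against 49.5, 44.4 and 48.4 FPKM with DMSO (log2 fold change -2.03 ± 0.26, adjusted p = 1.58e-05, and -1.25 without replicate 1). MARS had 12.8 and 24.4 FPKM with A771726, against 55.7, 48.9 and 71.6 FPKM with DMSO (-1.65 ± 0.20, adjusted p = 1.03e-05, and -1.21 without replicate 1). Both replicates lay below all DMSO libraries in these genes, and replicate 1 was the lower. GARS, VARS, FARSA and QARS, the other cytosolic genes with the largest falls, had log2 fold changes of -2.08 ± 0.37, -2.01 ± 0.45, -1.39 ± 0.28 and -1.38 ± 0.24. Without replicate 1 they were at -0.96, -1.30, -0.70 and -0.89, VARS no longer passed (adjusted p = 0.0672), and CARS at -1.05 lay below GARS, FARSA and QARS. The largest falls among the mitochondrial genes were -1.51 ± 0.29 for SARS2, -1.34 ± 0.23 for IARS2, -1.32 ± 0.32 for CARS2 and -1.29 ± 0.21 for VARS2, with YARS2 and TARS2 at -1.07 ± 0.26 and -0.91 ± 0.18. Without replicate 1 VARS2 was the lowest of the mitochondrial genes at -0.96, SARS2, IARS2 and TARS2 were at -0.84, -0.68 and -0.61, and CARS2 and YARS2, at -0.44 and -0.38, no longer passed (adjusted p = 0.127 and 0.142).

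LARS, the leucine enzyme of the complex, went the other way at 48 h, with 88.4 and 56.1 FPKM with A771726, against 51.6, 53.7 and 48.8 FPKM with DMSO (log2 fold change 0.45 ± 0.17, adjusted p = 0.0321). Without replicate 1 it was at 0.13 and was not called (adjusted p = 0.604). Of the libraries in the fit only replicate 1 lay well above DMSO, and replicate 2, which was left out of the fit, was at 383 FPKM. Replicate 1 is the library meant in what follows. It had 121 FPKM of IARS and 172 FPKM of RARS, where replicate 3 had 76.1 and 89.3 FPKM. Neither gene passed (0.10 ± 0.16 and 0.22 ± 0.27, and -0.23 and -0.24 without replicate 1). The cytosolic over mitochondrial ratio was 9.15 in replicate 1 and 5.02 in replicate 3 with A771726, against 5.25, 5.45 and 5.06 with DMSO, so replicate 3 stood only just under the lowest DMSO library. WARS2 had 3.93 and 4.47 FPKM with A771726, against 5.32, 5.95 and 3.99 FPKM with DMSO, and did not pass (-0.22 ± 0.15, adjusted p = 0.214, and -0.14 without replicate 1).

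**Figure D4:**
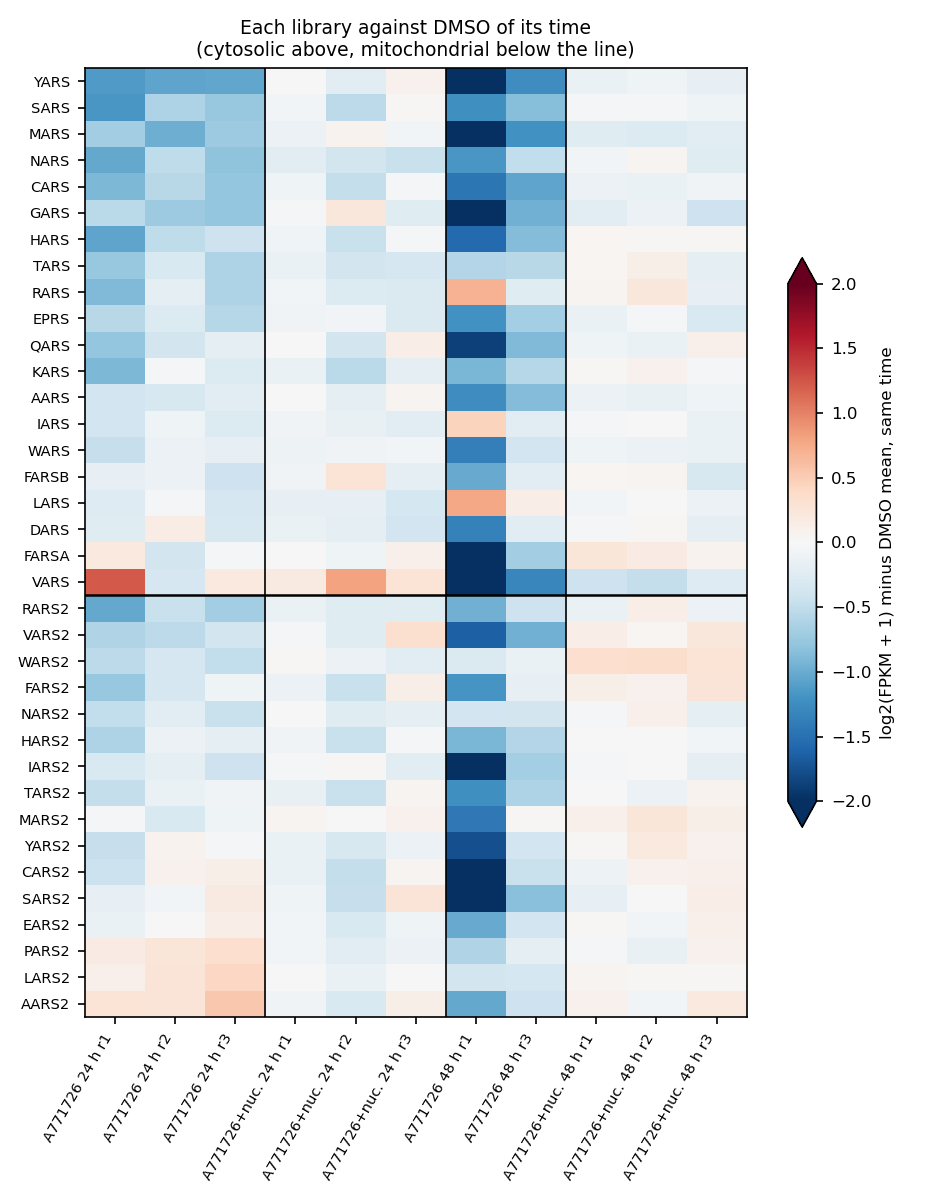
Log2(FPKM + 1) of each gene and library minus the DMSO mean of the same time, for the 36 genes (rows, ordered within each compartment by the log2 fold change at 24 h) and the libraries with A771726, alone or with nucleotides; colours saturate at 2 either way, and A771726 48 h replicate 2 is not drawn. The A771726 columns at 24 h are blue mainly in the upper rows, replicate 1 at 48 h is dark blue in most rows but red for LARS, IARS and RARS, and the columns with nucleotides are paler; at the common scale of equal sums the 24 h medians were 0.04 and 0.28.

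With nucleotides and A771726 at 48 h, 33 members were higher than with A771726 alone and 1, LARS, was lower, beside 56.7% and 5.32% of all genes, and without A771726 48 h replicate 1 the counts were 17 and 0, beside 23.1% and 5.8% of all genes in that fit. YARS had 43.3, 44.5 and 42.4 FPKM with both, against 5.93 and 19.3 FPKM with A771726 alone (log2 fold change 1.90 ± 0.26, adjusted p = 3.13e-05, and 1.13 without replicate 1). The 3 libraries with nucleotides agreed closely and stood above both others. GARS, VARS, FARSA, MARS and QARS followed among the cytosolic genes, with log2 fold changes of 1.83, 1.63, 1.54, 1.40 and 1.33, and 0.71, 0.92, 0.85, 0.97 and 0.85 without replicate 1, where VARS was not called (adjusted p = 0.187). Among the mitochondrial genes VARS2, CARS2, IARS2, YARS2 and TARS2 were at 1.42, 1.35, 1.28, 1.17 and 0.90, and without replicate 1 at 1.08, 0.47, 0.61, 0.49 and 0.60, where CARS2 and YARS2 were not called (adjusted p = 0.109 and 0.0648). SARS2, the mitochondrial gene with the largest rise, had 7.65, 8.7 and 9.67 FPKM with both, against 1.14 and 4.41 FPKM with A771726 alone (adjusted p = 0.000432, and 0.0245 without replicate 1). At equal FPKM sums 11 members were higher and 3 lower, and the share of all genes called at that scale is not given. In a fit of the groups compared alone none passed by limma, with 24 at an unadjusted p under 0.05. Compared with DMSO, cells given A771726 and nucleotides showed no called member at 48 h by limma, beside 0.00871% of all genes higher and 0.0261% lower, 1 had an unadjusted p under 0.05, and the log2 fold changes lay between -0.38 and 0.32.

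Other genes of charging and of amino acid supply were read from lists. ATF4 had 68.4, 108 and 99.4 FPKM with A771726, against 224, 199 and 210 FPKM with DMSO at 24 h, well apart (log2 fold change -1.22 ± 0.18, adjusted p = 0.000138). Of the 14 amino acid response genes, 4 fell and 3 rose, or 28.6% and 21.4%, beside 4.62% and 6.55% of all genes. SLC7A11, the cystine transporter, had 3.28, 4.28 and 3.04 FPKM with A771726, against 12.2, 16.6 and 11.4 FPKM with DMSO (-1.66 ± 0.20, adjusted p = 1.46e-05). ASNS, which makes asparagine, had 18.6, 12.1 and 11.4 FPKM with A771726, against 31, 35.2 and 30.5 FPKM with DMSO (-1.17 ± 0.17, adjusted p = 0.000148). Neither gene's groups overlapped, and CHAC1, which breaks down glutathione, was the other gene of the list that fell (-0.91 ± 0.19, adjusted p = 0.00419). ATF3, a stress transcription factor, had 8.35, 11.4 and 8.92 FPKM with A771726, against 1.73, 1.58 and 1.42 FPKM with DMSO, and rose by 2.02 ± 0.12 (adjusted p = 4.24e-09). SESN2, a sestrin that inhibits mTORC1 signalling, rose by 1.04 ± 0.25 (adjusted p = 0.0103), and VLDLR, a lipoprotein receptor, by 0.45 ± 0.14 (adjusted p = 0.0442). The list thus did not move in 1 direction. With nucleotides, against A771726 alone, ATF4, ASNS and SLC7A11 rose by 0.89 ± 0.18, 1.06 ± 0.17 and 1.59 ± 0.20, and ATF3 and SESN2 fell by 2.14 ± 0.12 and 1.13 ± 0.25 (adjusted p between 3.22e-09 and 0.00671).

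The steps on either side of charging were also read at 24 h. Of 7 genes of tRNA export and delivery 2 fell with A771726 against DMSO, or 28.6% beside 4.62% of all genes. The median log2 fold change of the 7 was -0.72, beside 0.02 for all genes, and 4 had an unadjusted p under 0.05 by limma. EEF1A1, which carries charged tRNA to the ribosome, had 1287.7, 2086.4 and 1745.4 FPKM with A771726, against 2934.7, 3218.7 and 2697.9 FPKM with DMSO (log2 fold change -0.81 ± 0.19, adjusted p = 0.0082), but it is listed at 0 in the 3 libraries with A771726 and nucleotides at 48 h, and for that group no fold is given. EEF1B2, a subunit of its exchange factor, fell by 0.88 ± 0.23 (limma adjusted p = 0.0176). XPOT, the tRNA exportin, had 42.1, 59.4 and 49.7 FPKM with A771726, against 82.4, 89.6 and 76.1 FPKM with DMSO, without overlap. Its log2 fold change of -0.72 ± 0.41 missed the threshold (limma adjusted p = 0.312). In the same fit its libraries with A771726 at 48 h were at 6.04 and 50.8 FPKM. Of 6 mitochondrial charging partners, such as the amidotransferase subunits and TUFM, none was called by limma, with 0 at an unadjusted p under 0.05.

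Several members share exonic bases with a neighbour on the other strand in a GRCh38 annotation. HARS and HARS2 overlap over 331 bases, MARS and DDIT3 over 62, YARS and S100PBP over 158, WARS and WDR25 over 211, EARS2 and UBFD1 over 370, AARS2 and TMEM151B over 146, and SARS2 and MRPS12 over 349. Whether reads were assigned by strand is not given in the sources used here, so reads from these stretches cannot be told apart. DDIT3 had 7.68, 14.1 and 13.8 FPKM with A771726, against 11.5, 11.2 and 11 FPKM with DMSO at 24 h (log2 fold change 0.02 ± 0.20, adjusted p = 0.962), while MARS fell.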

How the data were processed

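The authors' deposited table holds FPKM per gene for 24 RNA-seq libraries of A375 cells, 3 in each of 8 groups. Per the labels' protocols, ribosomal RNA was depleted with RiboZero Gold, libraries were made with NEBNext Ultra, and reads were paired. The submitters' processing notes name cutadapt, TopHat2 2.0.11, Cufflinks 2.2.1 and hg19. FPKM carry no read depth, so no counting interval can be given.

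The 11485 of 25268 genes that averaged 1 FPKM or more in the fitted libraries were modelled as log2(FPKM + 1) with limma 3.58.1 (R 4.3.3) over 8 group means and 23 libraries. The pseudocount makes fold changes of low genes smaller. P-values were adjusted by Benjamini-Hochberg over all genes within each of 9 comparisons, and called under 0.05. The fit was tested on simulated data. Members and lists were chosen with earlier results of these data known. Named genes are all members called at 24 h, the most abundant uncalled gene per compartment and, at 48 h, up to 6 called genes per compartment and direction. Of the pathway lists up to 4 called genes are named, and the scaffold genes, ATF4 and XPOT whatever their values; DDIT3 is named for its overlap. MLANA and other markers check the cell line. Alternatives were another pseudocount, other filters, scalings and libraries, robust limma-trend, a replicate block, and each library left out. The other genes named, such as AARS2, SESN2, CHAC1 and VLDLR, were chosen after their values were seen.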

Additional observations from a re-analysis of the deposited data

Results flagged for a closer look

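With A771726 against DMSO, 4 genes had opposite signs at the 2 times, every A771726 library of the fit (at 48 h replicates 1 and 3) lying on 1 side of the DMSO mean at 24 h and on the other at 48 h. LARS had a log2 fold change of -0.21 at 24 h and 0.45 at 48 h. AARS2 had 0.36 and -0.72, LARS2 0.26 and -0.36, and PARS2 0.25 and -0.40. The difference between the times was not tested. At 48 h the median of all genes was -0.68. A771726 48 h replicate 1 set much of the LARS value, and without it LARS was at 0.13. The other genes stayed below the DMSO mean in replicate 3. AARS2 was at -1.02 in replicate 1 and -0.41 in replicate 3, PARS2 at -0.60 and -0.20, and LARS2 at -0.37 and -0.35.

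The library that was left out, A771726 48 h replicate 2, had 4 members above every DMSO library of that time. LARS was at 383 FPKM, TARS2 at 112, AARS2 at 48.7 and WARS2 at 9.49 FPKM. The same library had 16198 genes at 0 and MIR3687 at 60.8% of its FPKM sum, and the part of these features in the 4 values was not tested.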

How the results depend on the processing

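The scale and the 48 h libraries with A771726 moved the counts of called members, and the cause was not tested beyond what each setting changes. Shares of all genes are not set beside the counts below, so these show how the calls moved and are not read as results about the members. With A771726 against DMSO at 24 h (11 lower, 0 higher), 8 were higher and 1 lower after rescaling to equal FPKM sums, 1 was lower with all 24 libraries, 7 were lower in a fit of the groups compared alone, and 1 (LARS2) was higher with no filter and with 22 libraries, where 16 were lower. At equal sums EPRS and NARS2 had log2 fold changes of 0.03 and 0.07. Scaling by the median of ratios gave 15 lower. With nucleotides against A771726 alone at 24 h (4 higher, 0 lower), equal sums gave 2 and 4, the median of ratios 9 higher, all 24 libraries 0 by limma (4 at an unadjusted p under 0.05), 22 libraries 8 and 3, the groups alone 2 higher, and no filter 2 lower. The difference of the effects (0 either way) gave 1 higher and 1 lower at equal sums, 2 higher with the median of ratios, 3 with 22 libraries and 2 in the groups alone. At 48 h with A771726 against DMSO (32 lower, 1 higher), equal sums gave 9 and 5, the median of ratios 10 and 4, 22 libraries 17 and 0, and the groups alone 0 and 0 by limma (21 at an unadjusted p under 0.05); TARS2 was at 0.32 with all 24 libraries. With nucleotides against A771726 alone at 48 h (33 higher, 1 lower) these settings gave 11 and 3, 10 and 3, 17 and 0, and 0 and 0 by limma (24 at an unadjusted p under 0.05). A pseudocount of 0.1, a minimum of 5 FPKM and robust limma-trend gave 9 to 10 lower members at 24 h.

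Leaving out 1 library at a time gave 4 to 16 lower and 0 to 1 higher at 24 h with A771726 against DMSO, 4 without A771726 24 h replicate 1, 5 and 6 without DMSO 24 h replicates 2 and 1, 7 without A771726 24 h replicate 3, and 16 without either of A771726 48 h replicates 1 and 3. It gave 2 to 8 higher and 0 to 3 lower with nucleotides against A771726 alone at 24 h, with 2 higher without A771726 24 h replicate 1 or without replicate 1 or 3 of the nucleotide group, and 0 to 3 higher for the difference of the effects. At 48 h it gave 17 to 32 lower and 0 to 3 higher with A771726, and 17 to 33 higher and 0 to 3 lower with nucleotides. YARS was called lower at 24 h in all of these fits. A group left with 1 library was taken to vary like the others.

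Replicate numbers were not used to pair the libraries in the main fit. Over all genes tested, the deviations of same-numbered libraries correlated between -0.28 and 0.243 over 8 comparisons. They were at -0.142, 0.0957 and 0.0334 for A771726 and DMSO at 24 h, and in none of the 8 was each correlation over 0.1. Single genes did keep 1 order of replicates. In every group other than A771726 at 48 h, EPRS and LARS were highest in replicate 2 and lowest in replicate 3. KARS did not keep that order, at 132, 123 and 119 FPKM with DMSO and 117, 129 and 130 FPKM with nucleotides at 24 h. These genes were picked after their values were seen. EPRS had 64.1, 70.4 and 56.8 FPKM with DMSO and 43, 52 and 42.4 FPKM with A771726 at 24 h. The correlations therefore do not settle whether same-numbered libraries share a batch, which was not tested. With a replicate block 14 members were lower and 1 (AARS2) higher with A771726 at 24 h, and 7 were higher and 3 lower with nucleotides against A771726 alone.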
